A study of Mus musculus with 4 samples.

Results

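The genes described here encode the structural proteins of the lipid droplet: the perilipins Plin1 to Plin5, the CIDE proteins Cidea, Cideb and Cidec, seipin (Bscl2) and FIT2 (Fitm2). They were taken by symbol from the platform annotation of a mouse whole-transcript array. Of the 10 genes listed, 9 had a probe set that carried their symbol alone, out of 22180 genes with such a probe set. The probe set of Cideb also carries the symbol of Nop9, so no value is given for Cideb. Each of the 9 genes had 1 probe set.

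The cells were bone marrow-derived macrophages, grown from the marrow of mice aged 8 to 12 weeks in medium with 15% of L929-conditioned medium, a source of the growth factor CSF1. All cultures received 600 µM fatty acids on albumin, with 2 parts of oleate for 1 part of palmitate, so untreated cells were not analysed here. There were 4 groups with 1 array each. Wild-type macrophages (Hilpda flox/flox, the gene floxed but intact) and knockout macrophages (HilpdaΔMΦ littermates, with the gene deleted in macrophages) were each taken after 12 h and after 24 h. RNA of 3 samples was pooled for every array, so an array holds no spread between animals or cultures. The promoter that drives the deletion is not named in the labels. HILPDA inhibits ATGL (Pnpla2), the lipase that starts the breakdown of triglyceride in droplets, and the design asks how its loss alters the transcripts of fat-loaded macrophages.

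A lipid droplet is a core of triglyceride and sterol ester under a single layer of phospholipid. Seipin marks the sites of the endoplasmic reticulum where droplets form, and FIT2 helps them bud toward the cytosol. Perilipins coat the surface and regulate the access of lipases, whereas CIDE proteins sit where droplets touch and pass lipid from the smaller to the larger. PLIN2 is the coat protein of most cells that are not adipocytes, including foam cells, and PLIN3 moves from the cytosol onto young droplets. PLIN1, CIDEA and CIDEC are best known from adipocytes, PLIN4 from adipocytes and muscle, and PLIN5 from heart, muscle and liver. Several of these genes, Plin2 among them, are targets of PPAR receptors, which bind fatty acids. PLIN2 protein is stabilised by droplets, and transcript arrays do not see such control.

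The sequence before the start site is shown for Plin2, Plin3 and Fitm2, the genes with signal above background that have a single start in the RefSeq promoter table (build GRCm38.p6). Each run holds the 250 bases before the start, on the strand of the gene. Capitals mark matches to AGGTCA on either strand, the half-site that PPAR and its partner RXR read as a direct repeat with a single base between the copies. Plin2 lies on the minus strand, at chr4:86670060-86670309, Plin3 on the minus strand at chr17:56290512-56290761, and Fitm2 on the minus strand at chr2:163472630-163472879.
Plin2: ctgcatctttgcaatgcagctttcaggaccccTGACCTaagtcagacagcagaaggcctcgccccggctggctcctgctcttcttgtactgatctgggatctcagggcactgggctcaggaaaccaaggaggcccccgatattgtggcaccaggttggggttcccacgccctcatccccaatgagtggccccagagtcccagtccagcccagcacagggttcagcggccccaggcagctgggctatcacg
Plin3: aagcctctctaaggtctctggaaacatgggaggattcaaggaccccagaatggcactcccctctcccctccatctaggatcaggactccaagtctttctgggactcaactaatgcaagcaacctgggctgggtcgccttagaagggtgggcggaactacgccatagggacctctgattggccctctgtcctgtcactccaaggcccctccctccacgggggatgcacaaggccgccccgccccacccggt
Fitm2: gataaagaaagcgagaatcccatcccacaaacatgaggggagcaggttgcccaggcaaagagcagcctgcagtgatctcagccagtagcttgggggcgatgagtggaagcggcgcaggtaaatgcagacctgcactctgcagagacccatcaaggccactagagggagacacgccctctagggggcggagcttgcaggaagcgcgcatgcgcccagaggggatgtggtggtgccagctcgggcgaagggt
The window of Plin2 held 1 half-site, which starts at position -218 from the start site and reads on the opposite strand, and those of Plin3 and Fitm2 held 0. Half-sites were in 14% of the 32851 windows in the table. The full direct repeat, whose copies are counted among the half-sites too, was in 0.0335% of windows and in none of these 3. The E-box CACGTG (6.02% of windows) and the TATA motif TATAAA (12.4%) were each searched on both strands and also had 0 matches in the 3. GC content was 61.6% for Plin2, 60% for Plin3 and 60.8% for Fitm2, against a median of 52.4%. A match or its absence describes these letters only.

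Values are log2 levels after RMA, and probes differ in brightness, so signals of different probe sets are not compared as transcript levels and are set against receptor genes only to read background. The 4 arrays correlated pairwise at 0.984 to 0.988 (Pearson, across 41345 probe sets). A gene was kept where its mean over the 4 arrays reached the 40th percentile of genes, a log2 level of 2.44, which left 13308 genes. As a reading of background, 1405 odorant, pheromone and trace amine receptor genes were used, which are expressed mainly in sensory neurons. Hilpda itself had levels of 5.93 and 5.41 at 12 h and 5.47 and 5.27 at 24 h, in wild type and knockout. It was lower in knockout by 0.51 and 0.20 on the log2 scale, and the sources used here do not say whether its probe set lies in the deleted part. The wild-type 24 h array was the lowest of the 4 for 30.2% of genes kept and the highest for 28.6%, against 22.8% to 24.0% and 22.4% to 25.2% for the other arrays.

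Of the 9 genes, 4 passed the level filter: Plin2, Plin3, Bscl2 and Fitm2. Plin2 (probe set 17426981) was brighter than all 1405 receptor genes, and Plin3 (17346216) and Bscl2 (17357236) had 1 receptor gene as bright or brighter. Fitm2 (17394036) had 5. The other 5 genes lay lower, with 115 receptor genes as bright or brighter for Plin1, 202 for Plin4, 187 for Plin5, 114 for Cidea and 256 for Cidec. As 8.11% to 18.2% of the receptor genes were at least as bright, these 5 genes were not separated from background.

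**Figure D1:**
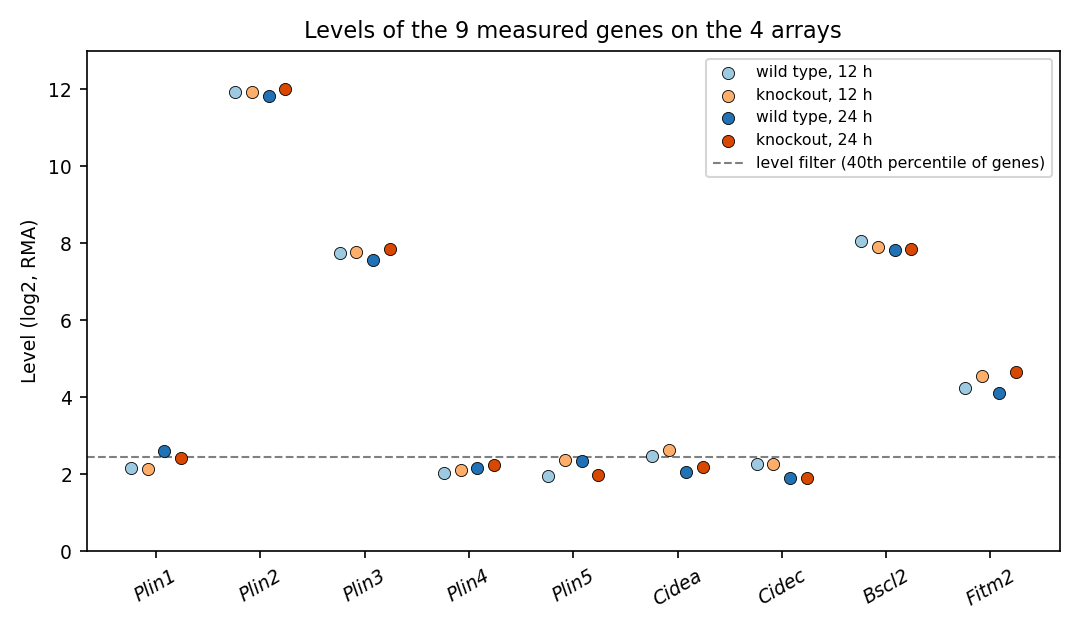
Log2 level (RMA) of the 9 measured genes on the 4 arrays, 1 point per array, with the level filter as a dashed line. Plin2, Plin3, Bscl2 and Fitm2 lie above the line at 2.44 on all arrays, and the other 5 genes lie close to it or under it.

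Plin2, the main droplet coat of macrophages, was nearly level over the study. The wild-type arrays read 11.93 at 12 h and 11.82 at 24 h, and the knockout arrays 11.93 and 12.00. The highest and lowest arrays were both 24 h arrays, and they differed by 0.18, or 1.13-fold. Of the genes kept, 18.4% had a range over the 4 arrays as small or smaller, and so did 35.6% of the 1331 genes of the top decile of level, to which Plin2 belongs.

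Plin3, the perilipin that coats young droplets, read 7.74 and 7.56 in the wild-type arrays (12 h and 24 h) and 7.78 and 7.85 in the knockout arrays. The 2 arrays at 12 h lay close together, and the wild-type 24 h array was the lowest. The range was 0.29, or 1.22-fold.

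Bscl2, which encodes seipin, had levels of 8.05 and 7.90 at 12 h and 7.83 and 7.86 at 24 h, in wild type and knockout. The wild-type 12 h array stood highest, with the other arrays within a narrow band, and the range was 0.23 or 1.17-fold. Fitm2, which encodes FIT2, had levels of 4.24 and 4.55 at 12 h and 4.12 and 4.66 at 24 h. Both knockout arrays lay above both wild-type arrays, and the range was 0.54 or 1.45-fold, the widest of the 4 genes.

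None of the 4 genes spanned 1.5-fold over the arrays, as was the case for 80.6% of genes kept. With 1 array per group the order of the levels has no replicate error to be read against. A search for genes of like pattern had been limited to members that span 1.5-fold, so none is named.

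The 5 genes near background were Plin1, Plin4, Plin5, Cidea and Cidec. Plin1, the gatekeeper of adipocyte droplets, had levels of 2.17 and 2.13 at 12 h and 2.60 and 2.43 at 24 h, in wild type and knockout. Plin5, which links droplets to mitochondria in oxidative tissue, had 1.96 and 2.37 at 12 h and 2.34 and 1.98 at 24 h. Cidea, known from brown fat, had 2.48 and 2.64 at 12 h and 2.08 and 2.18 at 24 h. For Plin1 and Cidea the arrays separated by time, and for Plin5 neither by time nor by genotype. Plin4 had 2.05 and 2.11 at 12 h and 2.16 and 2.24 at 24 h, and Cidec, which fuses droplets in white fat, had 2.26 and 2.26, then 1.90 and 1.91. The arrays separated by time for Plin4 and Cidec too. At such signals a difference cannot be read as one in transcript level.

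After 12 h Plin2 and Plin3 were close between the genotypes, and Fitm2 had the largest log2 difference of the genes above background. Fitm2 was higher in knockout by 0.30 on the log2 scale (1.23-fold), and 1035 of the 13308 genes kept were as high or higher. Bscl2 differed by -0.15, Plin3 by 0.04 and Plin2 by -0.01. None of the 9 genes was past 1.5-fold, where 2.90% of genes kept were, 1.5% higher and 1.4% lower. The central 95% of genes kept ran from -0.50 to 0.49, and for genes of the same decile of level it ran from -0.22 to 0.24 around Bscl2 and from -0.59 to 0.57 around Fitm2. Within those deciles 16.2% of genes were as far from 0 as Bscl2 and 25.7% as far as Fitm2, so Bscl2 stood farther out for its level. Among the genes near background, Plin5 was at 0.41, Cidea at 0.17, Plin4 at 0.06, Plin1 at -0.04 and Cidec at 0.00. The receptor genes had an SD of 0.28 in this comparison, and 12.5% of them were as far from 0 as Plin5. The median over the 4 genes above background was 0.02, and over all 9 it was 0.04.

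After 24 h the genes above background were all on the higher side in knockout, each by less than 1.5-fold. Fitm2 was higher by 0.54 (1.45-fold), just under the threshold, and 476 of the 13308 genes kept were as high or higher. Plin3 was higher by 0.29 (1.22-fold), with 1771 genes as high or higher, and Plin2 by 0.18 (1.13-fold), with 3191. Bscl2 was at 0.04. None of the 9 genes was past 1.5-fold, where 6.49% of genes kept were, 2.98% higher and 3.51% lower. Within their own deciles of level the values lay inside the central 95% of genes, which reached 0.79 around Fitm2, 0.50 around Plin3 and 0.39 around Plin2. Of all genes kept, 50.9% were above 0 at this time. Among the genes near background, Plin5 was at -0.36, Plin1 at -0.17, Cidea at 0.11, Plin4 at 0.08 and Cidec at 0.01, beside an SD of 0.30 over the receptor genes. The median over the 4 genes above background was 0.23, beside 0.01 over all genes kept, and over all 9 it was 0.08.

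**Figure D2:**
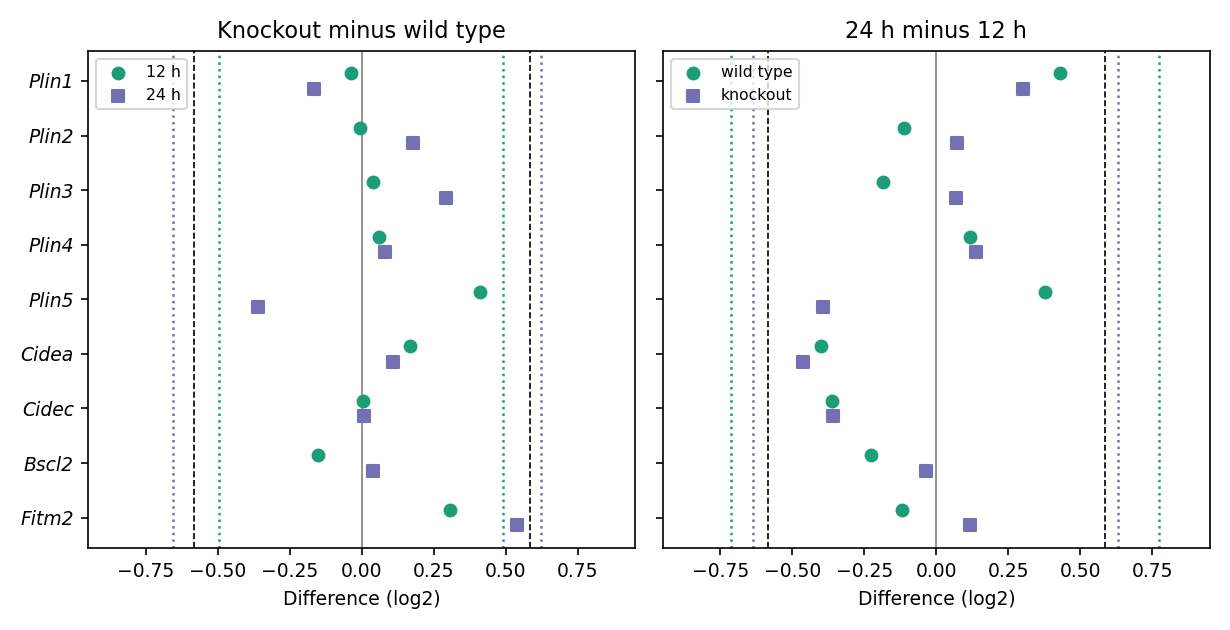
Differences in log2 level for the 9 genes, knockout minus wild type at each time on the left and 24 h minus 12 h in each genotype on the right. Dashed lines mark 1.5-fold and dotted lines the central 95% of genes kept in the comparison of the same colour; no point lies beyond the dashed lines, and Fitm2 at 24 h, at 0.54, comes closest on the left.

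**Figure D3:**
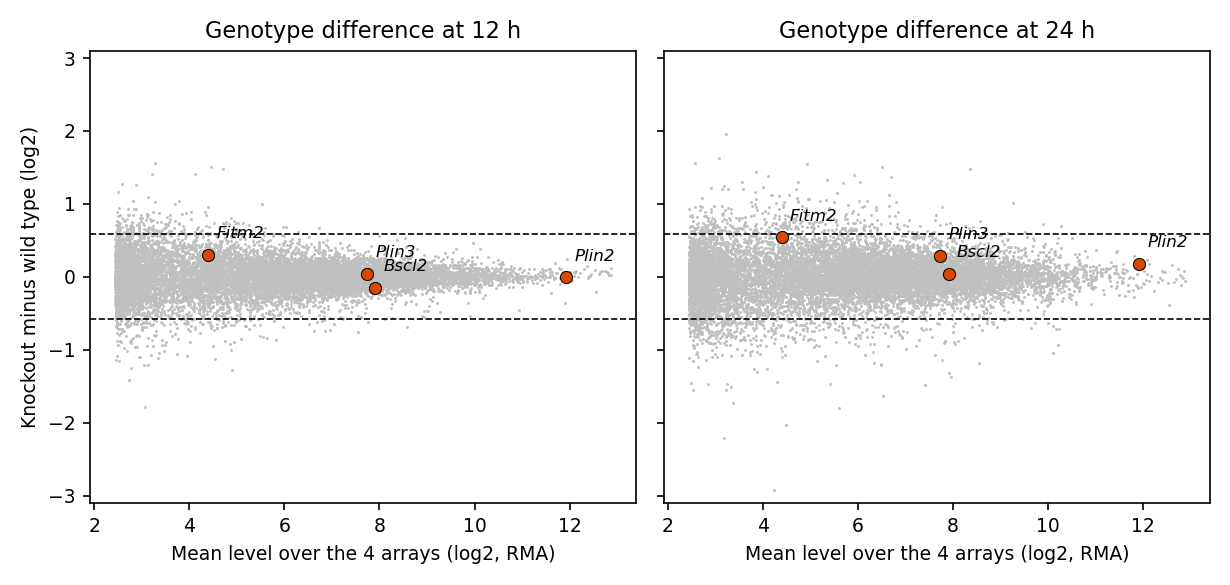
Knockout minus wild type (log2) against mean level for the 13308 genes kept (grey) at 12 h and 24 h, with the 4 genes above background in orange and 1.5-fold as dashed lines. The spread of genes narrows toward high levels, and the values of Plin2, Plin3, Bscl2 and Fitm2 lie within it at both times.

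Fitm2 and Plin3 were the 2 of the 4 genes that lay above 0 at both times, as 27.5% of genes kept did. Of the genes kept, 90 were as high as Fitm2 in both genotype differences, which use no array in common. Fitting genotype with time as an added term (limma, 4 arrays, 1 residual degree of freedom), Fitm2 was higher in knockout by 0.42 ± 0.13 (SE). The 95% interval ran from 0.08 to 0.76. The limma p of Fitm2 was 0.025, and the adjusted p was 0.76 (Benjamini-Hochberg, 13308 genes). That fit called 0 genes of 13308 (0%) at an adjusted p under 0.05, and 868 genes (6.52%) had an unadjusted p under 0.05. Among the 4 members tested, 0 were called and 1, Fitm2, had an unadjusted p under 0.05. A gene's own error in this fit is how far its genotype difference at 24 h departs from that at 12 h. limma moderates it toward a variance shared across genes, which supplied 3.30 of the 4.30 degrees of freedom behind each interval and p. That shared variance takes no account of level, although genotype differences spread more widely in the decile of Fitm2 than in the top decile. These p-values measure the spread between these arrays and not between replicates.

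The same fit bounds the genotype difference in the transcripts of Plin2, Plin3 and Bscl2, with time averaged. For Plin2 it was 0.09 ± 0.12 (SE), with an interval from -0.24 to 0.41 (limma, adjusted p = 0.92). For Plin3 it was 0.16 ± 0.13, from -0.18 to 0.51 (limma, adjusted p = 0.85), and for Bscl2 -0.06 ± 0.12, from -0.38 to 0.27 (limma, adjusted p = 0.96). A level 1.3-fold higher in knockout lies inside the intervals of Plin2 and Plin3, so these arrays do not show that the genotypes are alike.

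Between 12 h and 24 h of fatty acid loading the droplet genes above background differed little, and their direction differed between the genotypes for 3 of the 4. In wild type Bscl2 was lower at 24 h by 0.23 on the log2 scale, Plin3 by 0.18, Fitm2 by 0.12 and Plin2 by 0.11. In knockout Fitm2 was at 0.12, Plin2 at 0.07, Plin3 at 0.07 and Bscl2 at -0.04. None of the 9 genes was past 1.5-fold in either genotype. The share of genes kept past 1.5-fold was 8.72% in wild type (4.71% higher, 4.01% lower) and 6.31% in knockout (3.06% higher, 3.25% lower). All 4 genes were lowest in the wild-type 24 h array, as were 30.2% of genes kept, and both the genotype difference at 24 h and the time difference in wild type use that 1 array. This was singled out after the values were seen.

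Cidea and Cidec were lower at 24 h in both genotypes, by 0.40 and 0.46 for Cidea and by 0.36 and 0.36 for Cidec, in wild type and knockout. Plin1 was higher at 24 h, by 0.43 and 0.30. All 3 were near background, where 14.5% of the receptor genes in wild type and 10.5% in knockout were as far from 0 as Cidea. In the limma fit of time with genotype as an added term, 0 of 13308 genes (0%) had an adjusted p under 0.05, and 1759 (13.2%) had an unadjusted p under 0.05. Of the 4 members past the filter 0 were called and 0 had an unadjusted p under 0.05. Their time differences over both genotypes were -0.13 ± 0.12 (SE) for Bscl2, -0.06 ± 0.13 for Plin3, -0.02 ± 0.12 for Plin2 and -0.00 ± 0.13 for Fitm2.

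Other genes of droplet biology were described by their counts past 1.5-fold, to be read against the shares of all genes given above. Of 9 genes of droplet lipolysis 7 passed the level filter, among them Hilpda, the deleted gene itself. None of the 7 was past 1.5-fold between genotypes at 12 h, and 1 was higher in knockout at 24 h. That gene was Abhd5, which encodes the coactivator of ATGL, with levels of 7.85 and 7.96 at 12 h and 6.92 and 7.52 at 24 h, in wild type and knockout. The wild-type 24 h array was the lowest for Abhd5 too. G0s2, another inhibitor of ATGL, was at -0.15 and 0.22 between the genotypes, and Pnpla2 at 0.03 and 0.01. The medians of the 7 genes were -0.02 and 0.11.

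Among 27 other droplet and droplet-formation genes past the filter (of 29 listed), 1 was lower in knockout by 1.5-fold at each time and 0 were higher. At 12 h this was Vmp1, an endoplasmic reticulum protein of autophagy and droplet formation, at -0.65. At 24 h it was Lpcat2, which makes phosphatidylcholine for the droplet surface, at -0.89. The levels of Lpcat2 were 7.92 and 7.85 at 12 h and 8.60 and 7.71 at 24 h, so the wild-type 24 h array stood above the other 3. Fitm1, the muscle relative of Fitm2, was at -0.24 and -0.07, with levels between 3.16 and 3.40. The medians were -0.02 at both times.

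None of the 12 triglyceride synthesis genes past the filter was past 1.5-fold between the genotypes, with medians of -0.03 and 0.05. The sterol ester enzymes Soat1 and Soat2 were not analysed here. Dgat1, which adds the last acyl chain of triglyceride, was at -0.07 and 0.08, and Dgat2, under the filter with levels of 2.14 to 2.59, was at -0.19 and -0.43. None of 10 genes of droplet autophagy and lysosomal lipolysis was past 1.5-fold either, with medians of 0.06 and 0.03. These counts of 0 stand beside 2.90% of all genes at 12 h and 6.49% at 24 h.

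The PPAR receptors and their targets were included because Plin2 and several relatives respond to them. Of 6 receptor and coactivator genes past the filter, 0 were past 1.5-fold at 12 h, and 1 was higher in knockout at 24 h, the LXR alpha gene Nr1h3 at 0.67. Pparg had levels of 7.90 and 8.12 at 12 h and 8.13 and 8.63 at 24 h, in wild type and knockout. It was higher in knockout by 0.22 and 0.49. The medians of the 6 genes were -0.01 at 12 h and -0.16 at 24 h, and 4 of the 6 were below 0 at 24 h. Of 11 PPAR targets that are not droplet coat genes, 1 was lower at 12 h, the kinase gene Pdk4 at -0.82, and 2 were higher at 24 h, Fabp4 at 1.48 and Ucp3 at 0.62. Ucp3, best known from skeletal muscle, was at 2.43 to 2.72 on the other arrays and 3.25 in knockout at 24 h, where the muscle markers Acta1, Ckm, Tnnt3 and Myh4 were also higher, and their part in its value was not tested. Angptl4, a secreted inhibitor of lipoprotein lipase, was at 0.02 and 0.17, close to Plin2 in both. The medians of the 11 were 0.03 and 0.16.

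**Figure D4:**
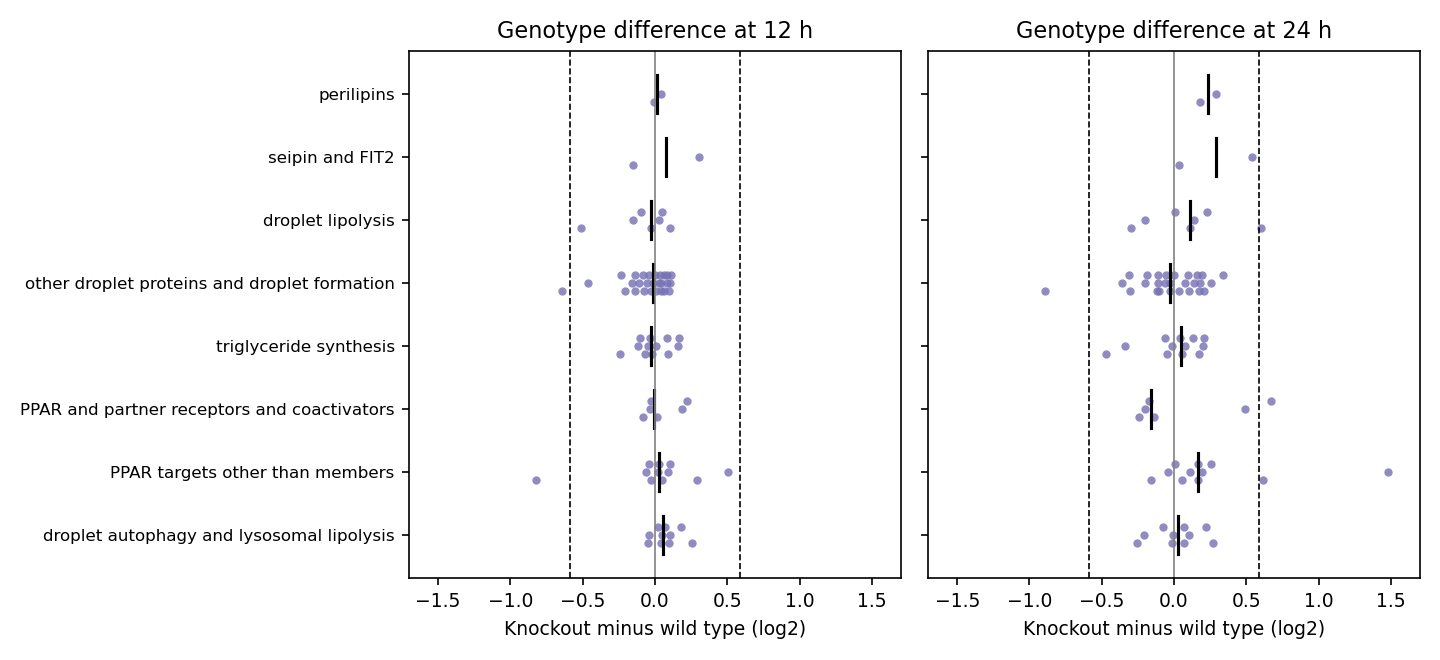
Knockout minus wild type (log2) at 12 h and 24 h for the genes past the level filter, 1 point per gene, in groups of droplet biology; black bars are group medians and dashed lines mark 1.5-fold. At 24 h the points beyond the lines are Abhd5, Lpcat2, Nr1h3, Fabp4 and Ucp3, and at 12 h Vmp1 and Pdk4.

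Over time, 1 of the 7 lipolysis genes was past 1.5-fold in wild type, Abhd5, lower at 24 h by 0.93, and 0 in knockout, where Abhd5 was lower by 0.44. Of the 27 other droplet genes, Cav1, the caveolin that also reaches droplets, was lower at 24 h in both genotypes, by 0.80 and 1.10. Nsdhl, a sterol enzyme found on droplets, was lower by 0.60 in wild type and by 0.25 in knockout, and Lpcat2 was at 0.68 and -0.14. Among the PPAR targets Pdk4 was at 0.97 and 1.64, and Fabp4 was lower by 0.64 in wild type and higher by 0.33 in knockout. Of the 12 synthesis genes, the 6 receptor and coactivator genes and the 10 autophagy genes, 0 were past 1.5-fold. Time in culture and fatty acid loading cannot be told apart in this design.

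The labelled cell type was borne out by its markers: all 8 macrophage markers passed the level filter, with Cd68 at 12.00 to 12.18 and Csf1r at 11.54 to 11.80. Of the adipocyte markers, 6 were measured, and Adipoq (2.34 to 2.37), Lep (1.94 to 2.26) and Retn (2.20 to 2.41) were near background, as were the list's own members Plin1 and Cidea. Lipe was the 1 adipocyte marker past the filter. Stromal markers were present and lower in knockout, with all 7 past the filter below 0 at both times and medians of -0.56 and -0.86. The summed level of all 9 stromal markers measured was 9.08 and 8.56 at 12 h and 9.81 and 9.0 at 24 h on the log2 scale, in wild type and knockout. Lum (1.77 to 2.02) and Thy1 (1.90 to 2.49) did not pass the filter on their means. In these bulk samples fewer stromal cells and less RNA per cell cannot be told apart, and their part in the values of Fitm2 or Plin3 was not tested. The 8 macrophage markers had a median genotype difference of 0.01 at 12 h and -0.27 at 24 h. At 24 h 7 of 8 were below 0, and Cd68 was at 0.18. Their bearing on the values of the droplet genes was not tested. The 5 muscle markers measured had a median genotype difference of 0.69 at 24 h, with Ckm at 0.69, Tnnt3 at 0.67, Acta1 at 1.62, Myh4 at 1.56 and Actn2, near background, at -0.02. Myh4 passed the filter on its mean, with 3.72 on the knockout 24 h array against 1.97 to 2.46 on the others. The part of muscle RNA in the values of the droplet genes was not tested. Plin5 was at -0.36 at 24 h, near background, where a difference cannot be read as one in transcript level. Of the 6 neutrophil markers 0 passed the filter, of 5 dendritic cell markers 3 did, and of 4 hepatocyte markers 2 did, with no gene past 1.5-fold between genotypes among those that passed.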

How the data were processed

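RNA of 3 samples was pooled per array, labelled as sense-strand target and hybridised to an Affymetrix whole-transcript array, per the labels' protocols, 1 array per group. RMA is the method that the submitters' processing notes name for the deposited log2 levels, 1 value per probe set and array, as the authors computed them. RMA subtracts background, quantile-normalizes arrays and summarises probes, so a shift of all transcripts together is not visible. The version and annotation are not given in the sources used here, and the log2 scale follows from the range of the values. The number of arrays limits the precision.

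Of 41345 probe sets, 23521 had 1 symbol in the platform annotation, 1814 several and 16010 none listed. Only the first were named, and for genes with several probe sets the one with the highest mean was taken. Differences were subtracted in Python 3.11.15 (pandas 2.3.3). The additive fit used limma 3.58.1 with Benjamini-Hochberg adjustment and is the only test across genes. Steps were tested on simulated data. All members were named, with Hilpda, 8 droplet and PPAR genes (Pnpla2, Abhd5, G0s2, Pparg, Angptl4, Fabp4, Dgat1, Dgat2) and list genes past 1.5-fold, and others (Fitm1, markers) as examples. The members and lists were chosen with earlier results of these data known. Alternatives were other level filters and fold rules, median centring, quantile normalization, loess, means over probe sets and another variance model.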

Additional observations from a re-analysis of the deposited data

Results flagged for a closer look

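For 5 of the 9 genes the genotype difference had opposite signs at the 2 times, or the time difference opposite signs in the 2 genotypes. With 1 array on each side these contrasts were not tested, and the sign of a small difference can turn on little. The change of the genotype difference from 12 h to 24 h, which equals that of the time difference from wild type to knockout, was 0.18 for Plin2 (genotype differences of -0.01 and 0.18). It was 0.25 for Plin3 (0.04 and 0.29), 0.19 for Bscl2 (-0.15 and 0.04) and 0.24 for Fitm2 (0.30 and 0.54). It was -0.77 for Plin5 (0.41 and -0.36), the largest in size of the 9 genes, at signals between 1.96 and 2.37 that were not separated from background.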

How the results depend on the processing

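The counts of members past 1.5-fold, their medians and the counts of members called by limma were recomputed in 68 combinations of result and setting, of which 67 kept the count or moved by less than the SD of the receptor genes. The exception was the 1.3-fold rule, under which 1 member, Fitm2, counted at 24 h against 0 under 1.5-fold. The SD of the receptor genes was 0.28 to 0.30, larger in size than each median over members. A median could therefore reach 0 and still count as kept. As limma called 0 genes in the main setting, its counts had little room to move. The 116 values of single members under other settings all kept within that SD, and the largest shift was 0.03 on the log2 scale. Many of them could not move. A level filter leaves a member's own value as it is, and so does the mean over probe sets, as each member has 1 probe set. Only median centring, quantile normalization and loess could change these values, and RMA had already quantile-normalized the arrays. The median over members at 24 h ran from 0.08 with no level filter to 0.25, as the filter decides whether 9 or 4 genes enter it. For the genotype effect of Fitm2 the limma adjusted p ran from 0.61 to 0.87 and the unadjusted p from 0.012 to 0.049. The highest unadjusted p came from the variance model that lets the variance follow level and also estimates it robustly. These changes were made together, so their parts cannot be told apart. No paired analysis was possible because each group has 1 array and the labels give no replicate numbers. Leaving out an array was not run, since it leaves no residual degrees of freedom.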
